A study of Mus musculus with 6 samples.

Results

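The insulin-like growth factor (IGF) axis in HT22 cells is described here through 10 genes: the ligand Igf1, the receptors Igf1r, Igf2r, Insr and Ghr, the receptor substrates Irs1 and Irs2, and the binding proteins Igfbp3, Igfbp4 and Igfbp7. Of these, 9 were found by symbol among the 16472 genes of the authors' deposited table, and the expression of Igfbp3 was not analysed here. The set was chosen by the fold change of Igf1, the lowest among well expressed genes, with results of the same comparison known, and the others were added for their role in the pathway. HT22 is an immortalised line derived from mouse hippocampus and used as a neuronal model. Cultures in serum-containing medium received AA147, at a concentration that the labels give as 10 mM, or the solvent DMSO as vehicle. That unit may be a typing error for micromolar, which could not be settled from the labels. Both groups were collected after 16 h, with 3 samples each and 6 in all, and non-stranded mRNA libraries were sequenced. The compound AA147 is known to activate ATF6, a sensor of protein folding stress, and NRF2, a regulator of the oxidative stress response.

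IGF1 is a secreted growth factor that binds the receptor tyrosine kinase IGF1R, a close relative of the insulin receptor. The activated receptor phosphorylates IRS1 and IRS2, which recruit phosphoinositide 3-kinase (PI3K) and switch on AKT, and AKT in turn keeps FOXO transcription factors out of the nucleus. IGF-binding proteins hold the ligand outside the cell, and IGF2R takes up IGF2 and carries enzymes tagged with mannose 6-phosphate to lysosomes. Growth hormone, acting through its receptor GHR, JAK2 and STAT5, is the classical inducer of Igf1 transcription, and in brain IGF1 supports the growth and survival of neurons.

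The authors' deposited table lists a mean normalized count over the 6 samples for every gene, a log2 fold change with its standard error (SE), and an adjusted p. It holds no value for a single sample, so the spread between replicates enters only through the SE, and overlap between groups could not be examined. Nothing in the labels says that the 3 samples of a group were separate cultures, and the p-values may then reflect technical spread only. The table does not name the numerator of the fold change. It is read below as AA147 over vehicle, and every direction depends on that reading. A gene is called where its adjusted p was under 0.05. Group levels are those implied by the mean and the fold change in groups of equal size, and intervals are 95% intervals from the SE.

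The sequences below show where the RefSeq start regions of these genes differ, beside the fold changes that follow. Of the 10 genes, 9 matched RefSeq promoter windows on GRCm38.p6, 10 windows in all because Ghr has 2. These 9 include Igfbp3 and leave out Insr, for which no window was used. A window runs from 250 bases before to 50 bases after a transcript start. Igf1 had 5 CpG in the 250 bases before the start, near the median of 6 over all 32851 windows. The Ghr windows had 8 and 17, and the other 7 genes were richer in CpG, with 22 to 42. The stretch before the Igf2r start is printed whole because it holds the 8-base palindrome in capitals at 2 places, 49 and 8 bases before the start (chr17:12769707-12769956, minus strand, printed 5′ to 3′ along the gene, 27 CpG).
Igf2r: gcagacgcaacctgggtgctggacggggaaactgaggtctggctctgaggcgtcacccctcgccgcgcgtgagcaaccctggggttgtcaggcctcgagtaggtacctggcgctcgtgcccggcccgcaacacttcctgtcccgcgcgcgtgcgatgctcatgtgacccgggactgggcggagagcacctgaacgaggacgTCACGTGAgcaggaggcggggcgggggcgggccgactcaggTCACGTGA

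The first 7 letters of that palindrome, TCACGTG, form an E-box of the kind bound by TFEB and TFE3, regulators of lysosomal genes. This motif, searched on both strands after the Igf2r stretch had been read, was in the windows of 3 genes, Igf2r, Irs1 and Irs2, and in 3.77% of all windows. The sites of Irs1 (chr1:82291539-82291565, minus strand, 116 bases before the start) and Irs2 (chr8:11008958-11008984, minus strand, 45 bases before the start) are shown with the E-box in capitals. In both, the E-box overlaps a match to the antioxidant response element core TGACNNNGC on the other strand, which 12.4% of all windows held and no other gene of the set.
Irs1: agaggctccgTCACGTGttttgctcct
Irs2: taacgcagagTCACGTGttgttttgct

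The Igf1 window held the letters CCACG, the part of the ER stress element that ATF6 binds, and CCAAT, the part bound by NF-Y, both in reverse orientation. They lie 195 and 142 bases before the start (chr10:87860906-87860930 and chr10:87860959-87860983, plus strand), so they are separate matches that do not adjoin. The whole ER stress element, with its parts at a set spacing, was not searched for, and binding was not tested. Capitals mark the match.
Igf1 CCACG site: ctactgcatgCGTGGtggtctttga
Igf1 CCAAT site: gcctagagcgATTGGtacacacagg

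Such short matches were common. CCACG was in 32.8% of all windows and in those of 6 of the 9 genes with a window (Ghr, Igf1, Igf1r, Igf2r, Igfbp7 and Irs1). CCAAT was in 37.4% of windows and in those of 3 genes (Ghr, Igf1 and Irs2). The C/EBP motif TTNNGCAA, the STAT5 motif TTCNNNGAA and the FOXO motif GTAAACA were in none of the 10 windows, and in 10.8%, 8.30% and 3.65% of all windows. Igf1 had 1 window of 300 bases, and sequence outside the windows was not searched. Absence from a window therefore does not show that a gene lacks such sites. Each motif was searched on both strands. CCACG and TCACGTG each hold a CpG, and most of these genes were richer in CpG than the median window. The shares over all windows were not matched for CpG.

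Igf1 had a mean of 132 normalized counts and a log2 fold change of -4.14 (SE 0.284) by the authors' deposited table. The mean and fold change imply about 250.1 normalized counts with vehicle and 14.1 with AA147. Igf1 mRNA was thus 17.7-fold lower with AA147, with an interval of 12.0 to 26.0. This value selected the gene and is a description. With a mean of at least 100 taken as well expressed, Igf1 was lowest of 10633 genes and the next was Clec3b at -3.39 in the authors' deposited table. The order of these was the same at a minimum mean of 10 or 50, while a minimum of 200 leaves Igf1 out. By the implied levels, Igf1 reaches the minimum of 100 only through the vehicle group. Of the 37 genes with a lower fold change, 1 had an adjusted p, and none had a mean above 9.55.

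Among the other ligands, only Igf2 was analysed, and its count was low. Igf2, the fetal growth factor that also signals through IGF1R, had a mean of 13.0 and a log2 fold change of -0.56 (SE 0.659) by the authors' deposited table. Its interval ran from -1.85 to 0.73, and it was not called (adjusted p 0.625). Neither a fall to 27.8% of the vehicle level nor a rise lies outside that interval. The insulin genes Ins1 and Ins2 were not analysed here.

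**Figure D1:**
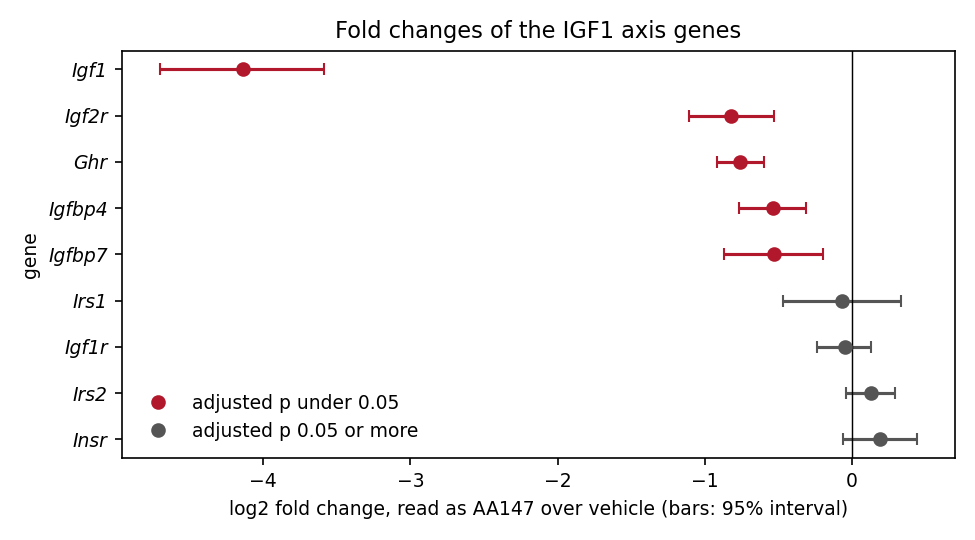
Log2 fold change (x axis, read as AA147 over vehicle) of the 9 IGF1 axis genes (y axis) with 95% intervals as bars; red points were called and grey points were not. Igf1 lies at -4.14, the other 4 called genes between -0.82 and -0.53, and the intervals of Irs1, Igf1r, Irs2 and Insr include 0.

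Of the 9 genes, 5 were called, all negative, and 0 positive. Over the whole transcriptome, 20.2% of the 13597 genes with an adjusted p were called, 11.1% negative and 9.05% positive, and the negative share was 13.1% among genes whose mean reached 100. The median log2 fold change was -0.53 over the 9 genes and -0.30 without Igf1, beside 0.01 over all genes. Since Igf1 chose the set and the results were known, these counts describe the set and show nothing particular to it.

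The receptors divided between lower and not called. Igf2r, the cation-independent mannose 6-phosphate receptor, had a mean of 504 and a log2 fold change of -0.82 (SE 0.147, adjusted p 7.23e-07) by the authors' deposited table. Its implied level went from 643.9 to 365.0 normalized counts, that is to 56.7% of vehicle (interval 46.4% to 69.2%). Igf1r, the kinase that carries the IGF1 signal, had a mean of 3041 and a log2 fold change of -0.05 (SE 0.094, adjusted p 0.757) by the authors' deposited table. Its implied levels were 3098 and 2983, or 96.3% of vehicle with an interval of 84.7% to 109.4%, and that interval lies wholly above the one of Igf2r. The difference between the 2 genes was not tested, because both come from the same samples and their covariance is unknown.

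Insr encodes the insulin receptor, which can also pair with IGF1R. It had a mean of 910 and a positive log2 fold change of 0.19 (SE 0.126, adjusted p 0.310) by the authors' deposited table. The implied levels were 849.9 with vehicle and 970.3 with AA147, with an interval of 96.3% to 135.4% of vehicle. Ghr, the growth hormone receptor, was called at -0.76 (SE 0.0825, adjusted p 2.38e-18) with a mean of 1102 in the authors' deposited table. This corresponds to implied levels of 1387 and 817.7, a decrease to 59.0% of vehicle (interval 52.7% to 66.0%). Ghr and Igf2r thus fell by similar proportions, and their intervals overlap.

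**Figure D2:**
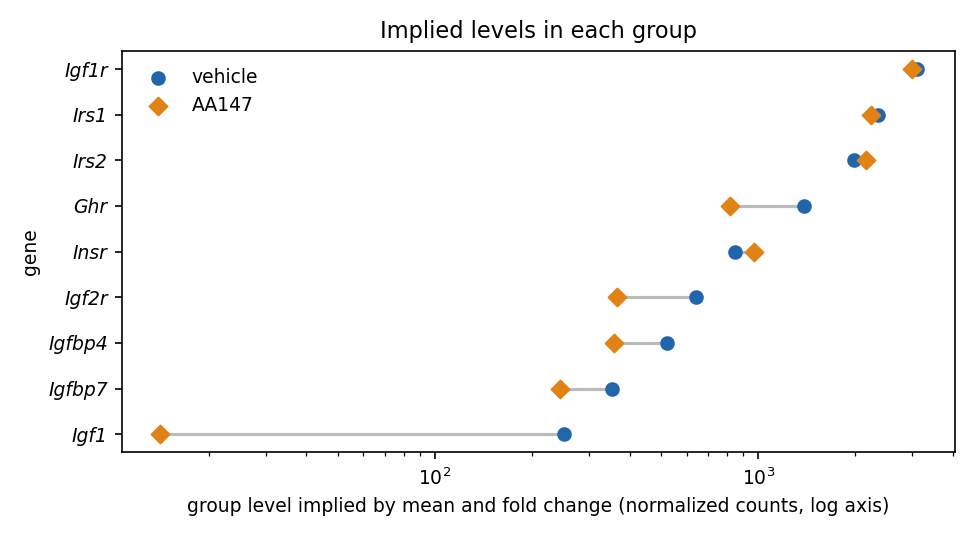
Group level in normalized counts (x axis, log scale) implied by the mean and fold change of each gene (y axis), with circles for vehicle and diamonds for AA147. Igf1 goes from 250.1 to 14.1, and the symbols of Igf1r, Irs1 and Irs2 nearly coincide.

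The receptor substrates were not called. Irs1 had a mean of 2295 and a log2 fold change of -0.07 (SE 0.204, adjusted p 0.870) by the authors' deposited table. Irs2 had a mean of 2067 and a log2 fold change of 0.13 (SE 0.0843, adjusted p 0.306), also by the authors' deposited table. Their intervals were 72.2% to 125.7% and 97.5% to 122.6% of vehicle, so the data bound Irs2 more tightly than Irs1.

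The precision of these values differed. The SE of Irs1 was 2.78 times the median SE of the 500 genes nearest in mean, and it was the only one of the 9 above 1.5 times, a ratio reached by 183 of the 10633 genes whose mean was 100 or more. The ratio was 1.39 for Igf1, 1.34 for Igf1r and Insr, 1.27 for Igf2r, 1.18 for Igfbp7, 1.12 for Irs2, 0.958 for Igfbp4 and 0.935 for Ghr. At these SEs Irs1 would have been called from an absolute log2 difference of 0.53, against 0.32 for Insr, 0.24 for Igf1r and 0.22 for Irs2. A change in Irs1 as large as that of Igfbp4 would have been just at the limit. The canonical Irs1 transcript has 9345 bases and that of Igf1r has 12466. The part of transcript length in the SE of Irs1 was not tested.

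**Figure D3:**
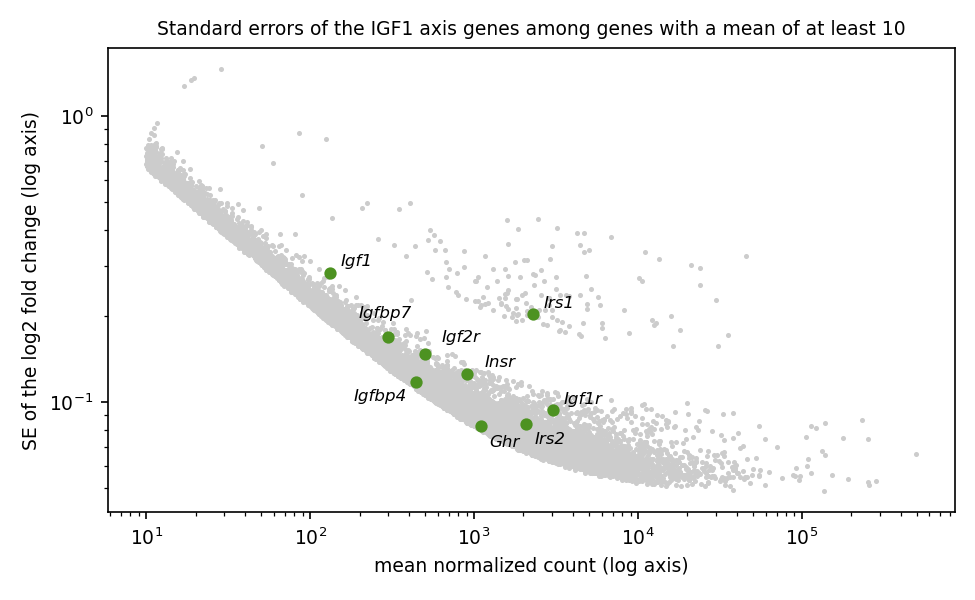
SE of the log2 fold change (y axis, log scale) against the mean normalized count (x axis, log scale) for genes of mean 10 or more in grey, and the IGF1 axis genes in green. Irs1 lies above the main band with an SE 2.78 times that typical of its mean, and the other 8 genes lie in or at the edge of the band.

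The binding proteins Igfbp4 and Igfbp7 were lower, and Igfbp3 has no value here. Igfbp4, which blocks IGF action until it is cleaved, had a mean of 440 and a log2 fold change of -0.54 (SE 0.118, adjusted p 7.07e-05) by the authors' deposited table. Its implied level fell from 522.0 to 358.6, to 68.7% of vehicle (interval 58.6% to 80.6%). Igfbp7, a secreted protein of the extracellular matrix with low affinity for IGFs, had a mean of 299 and a log2 fold change of -0.53 (SE 0.169, adjusted p 0.0113) by the authors' deposited table. It went from 353.6 to 244.1 implied counts, to 69.0% of vehicle, with a wider interval of 54.9% to 86.9%.

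Igfbp7 had the highest adjusted p of the 5 calls and was lost at a threshold of 0.01. In the GENCODE M39 annotation, 747 bases of its exons, 13.7%, are shared with exons of Polr2b on the opposite strand, and without strand information reads there cannot be told apart. Polr2b, an RNA polymerase II subunit gene, had a mean of 7864 and a log2 fold change of -0.03 (SE 0.0547) by the authors' deposited table. How much of the Igfbp7 count came from this overlap was not tested. Igf1r, Insr, Irs1 and Irs2 also share exon bases with genes on the opposite strand, at most 6.31% with any 1 partner. Those partners were not analysed here.

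Igfbp6, a binding protein that prefers IGF2, was the most abundant of the family in the list, with a mean of 9961. Its log2 fold change was -0.09 (SE 0.0583, adjusted p 0.305) by the authors' deposited table, with an interval of -0.20 to 0.02. Igfbp1, Igfbp2, Igfbp5 and Igfbpl1 were not analysed here.

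Per kilobase of the canonical transcript, the mean level was highest for Irs2 at 280.7 normalized counts, followed by Irs1 at 245.6, Ghr at 245.2 and Igf1r at 243.9. Igfbp4 lay at 114.8, Insr at 97.0, Igf2r at 56.4, Igfbp7 at 56.0 and Igf1 at 18.7. On this scale the ligand transcript was the lowest of the 9, also against the receptor transcripts. That place rests on the 7073 bases of the canonical Igf1 transcript, and a shorter form would have a higher value. Which transcript forms were present was not examined for any gene. The top place depends on the group, since with vehicle Ghr was highest at 308.5 against 268.1 for Irs2, and with AA147 Ghr was at 181.9 and Irs2 at 293.2. No spread over samples is known for these levels, so the order of near neighbours such as Irs1, Ghr and Igf1r, or Igf2r and Igfbp7, is not established.

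**Figure D4:**
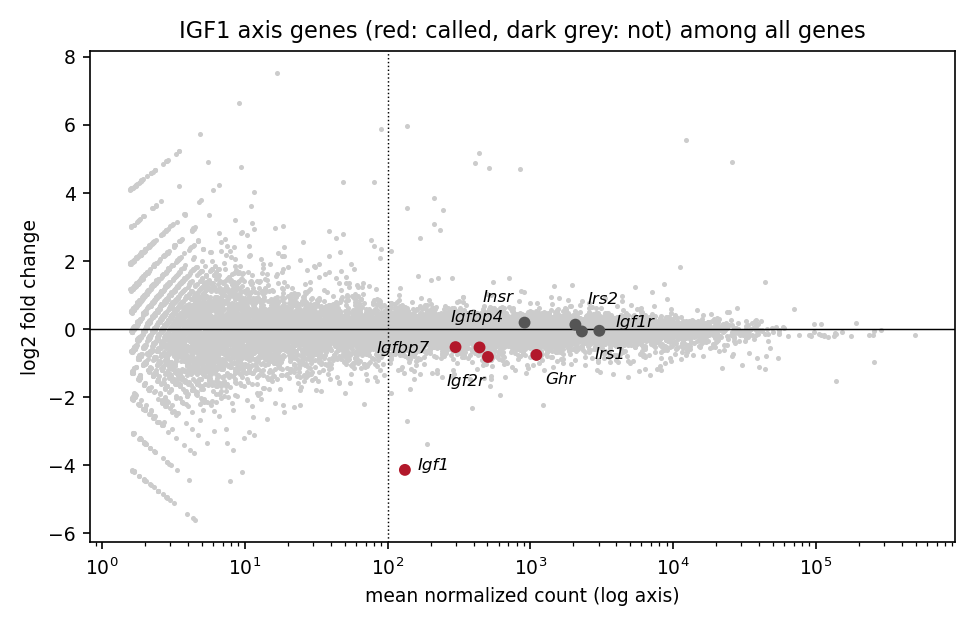
Log2 fold change (y axis) against mean normalized count (x axis, log scale) for all 16472 genes in grey, with the IGF1 axis genes in red where called and dark grey where not; the dotted line marks a mean of 100. Igf1 at -4.14 lies below every other gene to the right of that line, and the other 8 genes lie between -0.82 and 0.19.

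The wider pathway was described with 88 further genes, of which 72 were in the authors' deposited table. Of the 71 with an adjusted p, 10 were called positive and 14 negative, beside the 9.05% and 11.1% of all genes. Their median log2 fold change was 0.01, equal to that of all genes.

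The growth hormone pathway held calls in both directions. Besides Ghr, its list held 6 genes, of which Socs2 was not analysed here and 1 was called in each direction, beside 20.2% of all genes called in either. Cish, a feedback inhibitor that STAT5 induces, had a log2 fold change of -0.80 (SE 0.160, adjusted p 1.38e-05) by the authors' deposited table. Jak2, the kinase bound to the receptor, had one of 0.39 (SE 0.076, adjusted p 7.81e-06) by the authors' deposited table. The transcription factor genes Stat5a and Stat5b lay at 0.02 and -0.04 and were not called.

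Of the factors known to act on the Igf1 promoter, 3 were in the authors' deposited table and 2 of them were called, both negative, beside 11.1% of all genes. Cebpd, a C/EBP factor of stress and inflammation, fell by 1.10 on the log2 scale (SE 0.0824, adjusted p 2.07e-38) by the authors' deposited table. Cebpb, a related factor, fell by 0.48 (SE 0.0895, adjusted p 2.00e-06) by the authors' deposited table, while Stat5b was not called. The difference of Cebpd corresponds to a 2.15-fold lower level and is larger than that of any gene of the set other than Igf1.

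Signalling genes between the receptor and AKT were mostly not called, as is true of most genes. None of the 8 receptor substrates and adaptors in the authors' deposited table, Irs1 and Irs2 among them, was called, beside 20.2% of all genes. Their log2 fold changes ran from -0.17 to 0.18. Of the 18 genes of the PI3K, AKT and mTOR list, 1 was called in each direction, beside 20.2% of all genes called in either. Pik3cb, a catalytic subunit, had a log2 fold change of 0.24 (SE 0.0753, adjusted p 0.0126), and Pik3r2, a regulatory subunit, one of -0.33 (SE 0.0644, adjusted p 6.20e-06), by the authors' deposited table. These are small differences, of at most 0.33 on the log2 scale.

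Of the inhibitors of receptor signalling, 7 of 14 were called, 5 negative and 2 positive, beside 11.1% and 9.05% of all genes. Counts in lists this short are descriptions and were not tested against that share. The cytokine signalling inhibitor Socs3 at -0.65, the AKT inhibitor Trib3 at -0.62 and the AKT phosphatase gene Phlpp1 at -0.48 were the lowest of the list by the authors' deposited table, with SEs from 0.0813 to 0.110. Nedd4, a ubiquitin ligase, and Grb10, an adaptor that restrains the insulin and IGF1 receptors, were called at -0.24 and -0.21 in the authors' deposited table. Grb14, a relative of Grb10, had a log2 fold change of 0.62 (SE 0.234, adjusted p 0.0443) at a mean of 127 in the authors' deposited table. Inppl1, which encodes the phosphatase SHIP2, was called at 0.41 (SE 0.0614, adjusted p 5.81e-10) by the authors' deposited table. The called members of this list thus went in both directions.

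**Figure D5:**
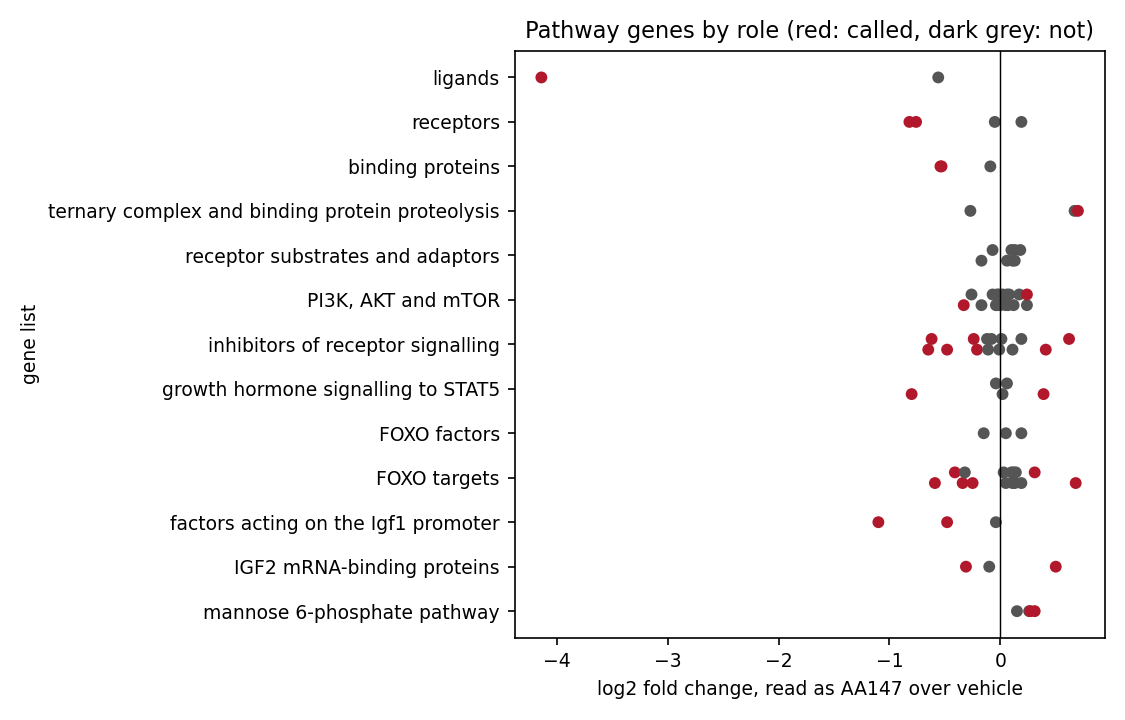
Log2 fold change (x axis, read as AA147 over vehicle) of each gene with an adjusted p in 13 lists of the IGF pathway (y axis), red where called and dark grey where not. Apart from Igf1 at -4.14, the values lie between -1.10 and 0.70, and the PI3K, AKT and mTOR list and the substrate list cluster near 0. No intervals are drawn, and a point near 0 can be poorly bounded, as for Rictor (interval -0.31 to 0.55).

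FOXO targets, which AKT signalling is known to hold down, were called in both directions. Of the 15 with an adjusted p, 2 were called positive and 4 negative, beside 9.05% and 11.1% of all genes. The median log2 fold change was 0.08 over the 16 listed. Cat, the catalase gene, at 0.68 (SE 0.0667) and Bcl6, a transcriptional repressor gene, at 0.31 (SE 0.102) were the called positive genes in the authors' deposited table. The negative ones in the authors' deposited table were Txnip at -0.59, Pdk4 at -0.41, Sesn1 at -0.34 and Cdkn1b at -0.25. Catalase is also counted among stress-responsive genes outside the FOXO group. None of Foxo1, Foxo3 and Foxo4 was called, and Foxo6 was not analysed here.

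The list for binding protein turnover held 6 genes, with Pappa, Pappa2 and Stc1 not analysed here. Htra1, a secreted serine protease that can cleave IGF-binding proteins, was called at 0.70 (SE 0.145, adjusted p 2.88e-05) with a mean of 352 in the authors' deposited table. It lay in the opposite direction to Igfbp4 and Igfbp7. Igfals, the partner of IGF and IGFBP3 in serum, at 0.67 (SE 0.448) and Stc2, an inhibitor of the IGFBP4 protease, at -0.27 (SE 0.152) were not called in the authors' deposited table.

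Of the other genes of the mannose 6-phosphate pathway, all 4 listed had positive fold changes, opposite in sign to Igf2r, and 2 were called, beside 9.05% of all genes called positive. Nagpa at 0.31 (SE 0.0918, adjusted p 0.00707) and Gnptab at 0.27 (SE 0.0686, adjusted p 0.000788), which encode enzymes that make the tag, were the called genes in the authors' deposited table. M6pr, the smaller receptor for the same tag, at 0.15 (SE 0.0718, adjusted p 0.132) and Gnptg at 0.26 (SE 0.108, adjusted p 0.0784) were not called in the authors' deposited table.

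Of the 3 IGF2 mRNA-binding proteins, regulators of mRNA stability, 1 was called in each direction, beside 20.2% of all genes called in either. Igf2bp1 was called at 0.50 (SE 0.0813), Igf2bp2 at -0.31 (SE 0.0708), and Igf2bp3 at -0.10 (SE 0.0748) was not called in the authors' deposited table.

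Markers of cell types that can make Igf1 were set beside these values. Of 8 microglia and macrophage markers, 4 were listed and the others, among them Ptprc and Aif1, were not analysed here. Itgam had a mean of 1.71, while Cd68 at 282.0% of its vehicle level, Csf1r at 193.2% and Tmem119 at 71.1% were called in the authors' deposited table. Of the 3 with an adjusted p, 2 were thus called positive and 1 negative, beside 9.05% and 11.1% of all genes. The mean of Csf1r was only 48.0. The implied sum of this list was 689.4 normalized counts with vehicle and 843.9 with AA147. Of 8 mesenchymal markers, 7 were listed and 5 were called, all negative, beside 11.1% of all genes. They were Col1a1 at -1.52, Col3a1 at -1.11, Col1a2 and Pdgfrb at -0.97 and Dcn at -0.81 in the authors' deposited table. The other listed markers of this list, Vim at -0.08 and Thy1 at -0.03 in the authors' deposited table, were not called. The implied sum of the 7 was 760770 with vehicle and 421656 with AA147, most of the difference in the collagen genes. Of 10 neuron markers, Tubb3, called at 0.43, and Syn1, at 0.13 and not called, were listed in the authors' deposited table, with implied sums of 1560 and 1962. Rbfox3, Map2, Syp, Snap25, Nefl, Nefm, Dcx and Prox1 were not analysed here, so these values do not show how far the cells are neuronal. Of 6 astrocyte markers 3 were listed, with an implied sum of 1353 with vehicle and 560.0 with AA147. Nearly all of it was 1 gene, Slc1a3, called at -1.30 in the authors' deposited table with implied levels of 1318 and 536.5. Of the other listed astrocyte markers, Aldh1l1 was not called and Slc1a2 had a mean of 1.62. Of 6 oligodendrocyte markers 2 were listed, with sums of 25.3 and 36.3. The 3 endothelial markers listed had means of at most 5.77. The samples are bulk cultures of 1 cell line, in which these markers need not mark separate cell types. Fewer cells of a kind and less RNA per cell cannot be told apart in them. The part of cell composition in the Igf1 value was not tested.

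Clec3b, Calml4 and Aoc3 were the called genes nearest to Igf1 in fold change where the mean was 100 or more. Likeness here rests on 1 comparison and says nothing of a shared pattern over samples. Clec3b, a secreted lectin gene, implied 346.6 normalized counts with vehicle and 33.0 with AA147, Calml4 236.9 and 36.4, and Aoc3, an amine oxidase gene, 653.5 and 131.1. The interval of Igf1, -4.70 to -3.59, overlapped that of Clec3b, -3.85 to -2.93, and not those of the other 2, computed from the authors' deposited table.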

How the data were processed

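Mouse HT22 cells given AA147 (3 samples) or vehicle (3 samples) for 16 h were measured by mRNA sequencing. Per the submitters' processing notes, DESeq2 and the genome build mm9 were used; the aligner, counter, annotation and filters are not given in the sources used here. The only file used holds 1 row per gene and no values per sample, so depth per sample is unknown; the means sum to 30768012. Per the file headers, the authors deposited a mean normalized count (a signal value, scaled between libraries), a log2 fold change and its SE, a score (the statistic), and p-values with adjusted p-values. The statistic equalled fold change over SE within 3.06e-07, and the adjusted p-values matched Benjamini-Hochberg over 13597 genes; the other 2875, with means of at most 8.41, have no call.

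The members and gene lists were chosen with earlier results of these data known. Named are all members, called genes of the pathway lists, uncalled ligands, receptors and binding proteins, and the 3 genes nearest to Igf1; Polr2b, the uncalled list genes and the markers named beside them, and the TCACGTG motif were picked after values or sequences were seen. Symbols missing were also sought by RefSeq synonyms. Transcript lengths and exon overlaps come from GENCODE M39 (GRCm39), which is not the authors' build, and promoter sequences from RefSeq (GRCm38.p6), so coordinates are given for the promoter stretches only, on that build. Intervals assume a normal law and cover the authors' SE only. Calling was tested on data simulated with the authors' SEs, which checks the calling steps and cannot check those SEs. Alternatives were a stricter threshold, other adjustments, a minimum mean, centring and a null interval of 0.5. Python 3.11.15, pandas 2.3.3, NumPy 2.4.6, SciPy 1.17.1 and Matplotlib 3.10.9 were used.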

Additional observations from a re-analysis of the deposited data

How the results depend on the processing

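No paired analysis was possible because the table has no values per sample; for the same reason leaving out replicates and other normalizations were not run. The 5 calls in the set were the same genes with the adjustment over all genes with a p, over genes with a mean of at least 100, and after centring on the median of those genes. At an adjusted p under 0.01, 4 of the set and 1818 of all genes were called, with Igfbp7 lost. A Bonferroni adjustment left 3 of the set (Igf1, Igf2r and Ghr), 13 of the 24 other pathway genes and 774 of all 2741 calls. A null interval of 0.5 left 1 of the set (Igf1), 1 other pathway gene and 172 calls. These settings are stricter by construction. The share of positive calls over all genes was 44.9%, and 32.3% with Bonferroni. Centring on the median or on the 500 genes nearest in mean kept the direction and the call of all 9 genes, with a largest shift of 0.04.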
